A study of Mus musculus with 2 samples.

Results

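The histone genes of the array were taken by symbol from the platform's annotation, as the genes of linker histone H1 and of core histones H2A, H2B, H3 and H4 with their variants, leaving out the MHC genes that share the H2 prefix. This gave 37 genes of the 19938 with a probe set of their own, of which 8 encode linker histones, 23 are replication-dependent core genes and 6 encode core variants. RNA came from CD3+CD4+ T cells sorted from the pancreatic lymph nodes (PLN) of BDC mice, which are NOD mice carrying transgenes for both chains of a T cell receptor that recognizes a β cell antigen. The mice were 8 weeks old and had received, 48 hours earlier, a nondepleting anti-CD4 Ab (ND αCD4; clone YTS177) or the isotype control Ab (clone 2A3). The label of the isotype control gives 1 mg of Ab, age and agent stand under each other's heading in the labels, and the number of the BDC clone differs between labels and paper. Nodes of 3 mice went into a sort as a pool, according to the methods, and each condition has 1 array. No difference below therefore has a replicate check and no p value is given.

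Histones are the proteins around which DNA is wound. Core histones form the nucleosome, and linker histone H1 binds where DNA enters and leaves it. Most core and H1 genes lie in clusters and are replication-dependent, which means that their mRNA is made in S phase, ends in a stem-loop in place of a poly(A) tail and is destroyed when DNA synthesis stops. The variant genes of H2A.Z and H3.3 are expressed throughout the cell cycle, lie outside the clusters and yield polyadenylated mRNA. In T cells, replication-dependent histone mRNA is thus known as a readout of cells in S phase. In a bulk sample, fewer cells of a type and less RNA per cell cannot be told apart.

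The promoters of 6 genes are shown because these genes carry the pattern described below, namely *H1f5*, *H2bc3*, *H2bc14* and *H2ac15* (lower after ND αCD4), *H1f2* (higher) and *H4c4* (an H4 gene that differed little). Each sequence is the 150 bases before the annotated start in RefSeq (GRCm38.p6), read 5′ to 3′ on the strand of the gene. Capitals mark matches, on either strand, to the CCAAT box (CCAAT), the TATA box (TATAAA), the octamer (ATTTGCAT) known from H2B promoters, and the H1 box (AAACACA) known from H1 promoters.
H1f5 (chr13:21780626-21780775, minus strand): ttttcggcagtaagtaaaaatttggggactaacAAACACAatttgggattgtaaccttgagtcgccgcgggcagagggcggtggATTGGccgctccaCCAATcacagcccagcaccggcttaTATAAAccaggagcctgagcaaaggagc
H1f2 (chr13:23738657-23738806, plus strand): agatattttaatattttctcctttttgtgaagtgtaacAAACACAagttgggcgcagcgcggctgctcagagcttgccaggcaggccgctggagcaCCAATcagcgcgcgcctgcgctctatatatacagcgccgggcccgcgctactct
H2bc3 (chr13:23746584-23746733, plus strand): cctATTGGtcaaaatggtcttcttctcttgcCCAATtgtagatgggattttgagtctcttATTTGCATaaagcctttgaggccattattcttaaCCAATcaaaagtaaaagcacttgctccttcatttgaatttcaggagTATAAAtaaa
H2bc14 (chr13:21721894-21722043, plus strand): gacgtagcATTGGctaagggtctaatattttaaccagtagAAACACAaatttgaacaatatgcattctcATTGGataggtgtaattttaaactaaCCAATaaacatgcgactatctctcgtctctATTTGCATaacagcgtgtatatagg
H2ac15 (chr13:21753913-21754062, minus strand): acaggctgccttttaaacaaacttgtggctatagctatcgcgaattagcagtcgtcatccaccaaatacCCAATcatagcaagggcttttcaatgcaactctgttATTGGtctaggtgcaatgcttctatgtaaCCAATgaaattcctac
H4c4 (chr13:23581418-23581567, plus strand): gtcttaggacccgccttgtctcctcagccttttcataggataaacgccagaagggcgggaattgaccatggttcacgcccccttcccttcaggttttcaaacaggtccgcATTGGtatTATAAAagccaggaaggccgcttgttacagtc

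Within this window, a CCAAT box was found in 24 of the 31 members with an entry in the table, or 77.4%, against 24.5% of all 32851 promoters of the same length. The octamer was in 7 of 31 members (22.6%), 4 of them among 7 H2B genes, against 0.998% of all promoters, and the TATA box in 13 (41.9%) against 7.57%. The H1 box was in 7 members (22.6%) against 3.53% of all promoters, and 3 of the 4 replication-dependent H1 genes had it. *H1f5* and *H1f2*, which differed in opposite directions, both held an H1 box, starting 117 and 112 bases before the start, and a CCAAT box, starting 53 and 54 bases before it. Of 6 H4 promoters, 2 held a CCAAT box, while all 7 H2B promoters did. Matches are letters in a window that depends on the annotated start, and they describe sequence only.

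Background was set at the 95th percentile of probe sets for olfactory and vomeronasal receptors, a log2 signal of 7.64 with isotype control Ab and 7.56 with ND αCD4, and a gene above it in either array was called detected. Of the 37 members, 28 were detected, 25 of them in both arrays. Differences are log2 ratios of signal, ND αCD4 minus isotype control, and genes that differed by 1.5-fold or more were counted. Among the 28, 4 were at least 1.5-fold lower and 1 was at least 1.5-fold higher, where 1.01% and 0.212% of the 13214 detected genes of the array were lower and higher by that rule. A log2 ratio below 0 was found in 21 of 28 members, against 52.7% of all detected genes. Among these, *H2bu2* and *H2bc1* passed the filter only through the isotype control array, which by itself sets a ratio below 0. The median over the members was -0.13, beside -0.01 over all detected genes. No error can be attached to these counts, and many members share near-identical sequence, so that they are not independent measurements.

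**Figure D1:**
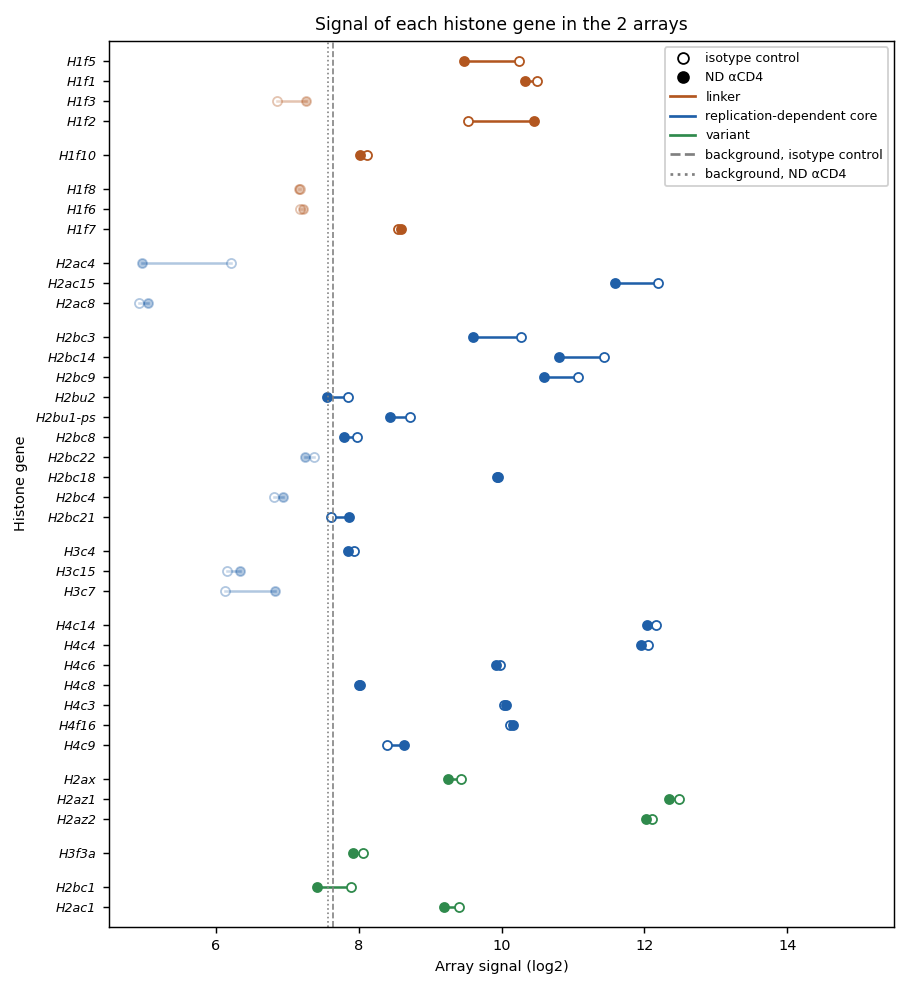
Array signal (log2, horizontal axis) of the 37 histone genes (vertical axis) in the isotype control array (open circles) and the ND αCD4 array (filled circles), colored by class, with pale symbols for the 9 genes that did not exceed background in either array. *H1f2* is the detected gene with the longest line to the right and *H1f5* the one with the longest to the left, and since probes differ between genes, only signals of the same gene can be compared.

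The linker histone genes differed in opposite directions. *H1f2*, which encodes the somatic linker histone H1.2, had signals of 9.52 with isotype control Ab and 10.45 with ND αCD4, a 1.90-fold higher level. Of 13214 detected genes, 4 had a higher log2 ratio than its 0.92. *H1f5*, which encodes H1.5, had signals of 10.25 and 9.48, a 1.71-fold lower level with a log2 ratio of -0.77, and 60 detected genes had a lower ratio. These values lie on opposite sides of every other detected histone gene, although both genes belong to the replication-dependent somatic H1 genes of the chromosome 13 cluster. *H1f1*, the third detected gene of that group, had signals of 10.49 and 10.33, a log2 ratio of -0.16. *H1f3* stayed below background in both arrays (6.85 and 7.26). *H1f4* has no probe set of its own, and the one that it shares with the core gene *H2bc6* had signals of 9.45 and 9.74, a log2 ratio of 0.29. The replication-independent linker gene *H1f10* had signals of 8.12 and 8.02, a log2 ratio of -0.10. Among the linker genes known from germ cells, *H1f7* had signals of 8.54 and 8.60, a log2 ratio of 0.05, and *H1f6* and *H1f8* did not exceed background. Of the 5 detected linker genes, 1 was higher and 1 was lower by the 1.5-fold rule, against 0.212% and 1.01% of all detected genes. The median of the 5 was -0.10. The values of *H1f2* and *H1f5* stayed within 0.92 to 0.94 and -0.77 to -0.75 under the other scalings of the arrays.

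**Figure D2:**
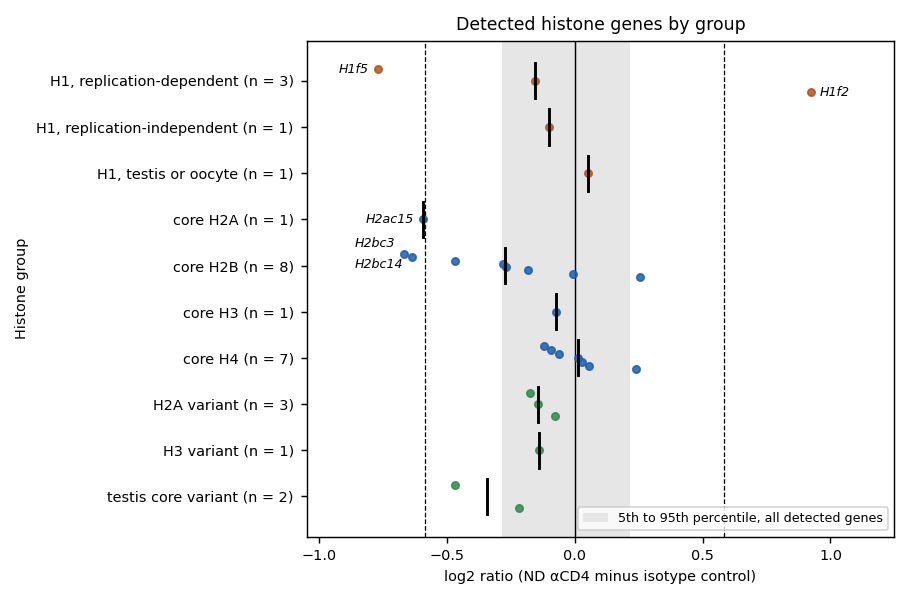
Log2 ratio (ND αCD4 minus isotype control, horizontal axis) of the 28 detected histone genes by group (vertical axis), 1 point per gene, with the median of each group as a black bar, dashed lines at 1.5-fold and the 5th to 95th percentile of all detected genes (-0.28 to 0.21) shaded. The 5 genes past 1.5-fold are named, all 7 H4 genes lie between -0.12 and 0.24, and vertical position within a group carries no meaning.

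Among the replication-dependent core genes with a probe set of their own, those lower by the 1.5-fold rule encode H2A and H2B. No H4 gene reached it. Of 17 detected core genes, 3 were at least 1.5-fold lower and 0 were higher, against 1.01% and 0.212% of all detected genes. The median log2 ratio of the core genes was -0.09. *H2bc3* had signals of 10.27 with isotype control Ab and 9.60 with ND αCD4, a 1.59-fold lower level. *H2bc14*, another H2B gene, had signals of 11.43 and 10.80, a 1.56-fold lower level. *H2ac15*, the only detected gene of replication-dependent H2A with a probe set of its own, had signals of 12.19 and 11.59, a 1.51-fold lower level. The last of these lies at the edge of the 1.5-fold rule, and its log2 ratio of -0.60 became -0.57 after quantile normalization and -0.58 after lowess correction, which leaves 2 core genes lower. Nearest outside the rule among core genes was the H2B gene *H2bc9*, with signals of 11.06 and 10.60 and a log2 ratio of -0.47.

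Of the other detected H2B genes, only *H2bc21* had a log2 ratio above 0 in the deposited values. *H2bu2* reached 7.84 with isotype control Ab and lay below background after ND αCD4, so that it was at least 1.21-fold lower. The pseudogene *H2bu1-ps* had signals of 8.71 and 8.44, and *H2bc8* had signals of 7.97 and 7.79. *H2bc18* was nearly the same in both arrays (9.95 and 9.94, a log2 ratio of -0.01, which turned to 0.01 under the scaling that raised it most). *H2bc21* exceeded background only after ND αCD4 (7.87) and was at least 1.17-fold higher. Over the 8 detected H2B genes, 7 had a log2 ratio below 0, against 52.7% of all detected genes, and the median was -0.28. Of the 8, 6 exceeded background in both arrays. *H2bu2* passed the filter through the isotype control array alone and *H2bc21* through the ND αCD4 array alone. The probe sets that name only *H2bc4* or *H2bc22* stayed below background in both arrays. Of the H3 genes with a probe set of their own, *H3c4* was detected (7.93 and 7.85, a log2 ratio of -0.07), and *H3c7* and *H3c15* were not.

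All 7 H4 genes were detected in both arrays and none reached 1.5-fold. *H4c14* had signals of 12.16 and 12.04, *H4c4* of 12.04 and 11.95, *H4c6* of 9.98 and 9.92, and *H4c3* of 10.04 and 10.07. Their log2 ratios were -0.12, -0.09, -0.06 and 0.03. *H4c8* (8.00 and 8.02), *H4f16* (10.11 and 10.17) and *H4c9* (8.39 and 8.63) had log2 ratios of 0.01, 0.06 and 0.24. The median over the H4 genes was 0.01, and that over the 10 detected H2A, H2B and H3 genes was -0.28, a difference of -0.29 that was not tested. Of these 10, 8 encode H2B, with the same median of -0.28, and the only H3 gene, *H3c4*, had -0.07. By position, the 3 lower core genes and *H1f5* and *H1f2* all lie in the cluster on chromosome 13, which holds 11 of the detected core genes with a promoter entry, while the 3 detected core genes elsewhere with such an entry (*H2bc18*, *H2bu2* and *H4f16*) had log2 ratios between -0.28 and 0.06 by measured signal.

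Because the coding sequences of replication-dependent histone genes are nearly identical, many probe sets carry several histone symbols and were left out of the counts above. There were 32 of them, 26 in which each symbol is a histone gene and 6 in which *H3f3a* or *H3f3b* is joined with a predicted gene. The 10 probe sets of H3, each naming 12 genes, had signals from 13.34 to 13.85 with isotype control Ab and from 12.83 to 13.35 with ND αCD4. Their log2 ratios ran from -0.53 to -0.48 with a median of -0.50, a 1.41-fold lower level, so that each was short of 1.5-fold. The 7 probe sets of H2B name 14 symbols, or 15 where *H2bc1*, classed below as a variant, is included. They had log2 ratios from -0.45 to -0.33 with a median of -0.40. Both groups were lower after ND αCD4 in each probe set, with H3 further from 0 than its single gene *H3c4*. The 6 shared probe sets of H4 had log2 ratios from -0.19 to -0.09. The value of -0.09 came from the probe set naming only *H4c11* and *H4c17*, with signals near background (7.71 and 7.62). The others each name 11 genes, with signals from 12.87 to 13.18 over both arrays and log2 ratios from -0.19 to -0.15. Both of H2A, which name 19 and 20 symbols, had -0.20 and -0.17. Both of H2A name *H2ac15*, whose own probe set had -0.60, and they lay near those of H4. They also name the variant gene *H2ax* and the H3 gene *H3c4*, so they do not measure replication-dependent H2A alone. With that limit, the difference between H2A and H4 seen in single genes was not seen in shared probe sets. In the order of their medians, shared H3 was lowest, then H2B, and the shared H4 and H2A probe sets were closer to 0. The probe sets of a type measure largely the same mRNAs, and 3 of the 26 repeat another's pair of values, so their number adds no replication. With these added, apart from that of *H1f4* and *H2bc6*, the median over the core genes was -0.31 in place of -0.09. Of the 26, 25 had a log2 ratio below 0, where 52.7% of all detected genes with a probe set of their own did. None reached 1.5-fold, where 1.12% of all 35557 probe sets were at least 1.5-fold lower.

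**Figure D3:**
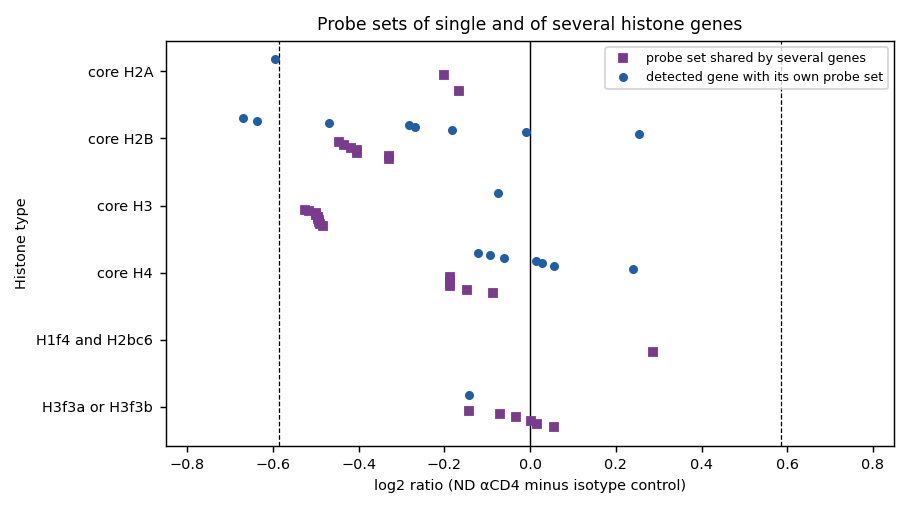
Log2 ratio (ND αCD4 minus isotype control, horizontal axis) of probe sets shared by several genes (squares) and of detected genes with a probe set of their own (circles) for each histone type (vertical axis), with dashed lines at 1.5-fold. The 10 shared H3 probe sets lie between -0.53 and -0.48, and those of H4 between -0.19 and -0.09.

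All 6 variant histone genes with a probe set of their own had a log2 ratio below 0, against 52.7% of all detected genes, and none reached 1.5-fold. Of these, 5 exceeded background in both arrays. *H2bc1* passed the filter only through the isotype control array, which by itself sets a ratio below 0. *H2az1*, which encodes the H2A.Z.1 variant found at promoters, had signals of 12.48 with isotype control Ab and 12.34 with ND αCD4, a log2 ratio of -0.14, and its other probe set gave -0.15. *H2az2*, the gene of H2A.Z.2, had signals of 12.10 and 12.02, a log2 ratio of -0.08. *H2ax*, whose product is phosphorylated at DNA breaks, had signals of 9.43 and 9.25, a log2 ratio of -0.18. None of these H2A variants reached 1.5-fold. *H3f3a*, which encodes the replacement histone H3.3, had signals of 8.06 and 7.91 in its own probe set, a log2 ratio of -0.14. The 6 probe sets that *H3f3a* or *H3f3b* share with predicted genes had signals from 11.90 to 13.03 over both arrays and log2 ratios from -0.14 to 0.06, with a median of -0.02. Those naming *H3f3a* had -0.14 to 0.02. Those naming *H3f3b*, which has no probe set of its own, had 0.06 and 0.001. Of the core variants known from testis, *H2ac1* had signals of 9.41 and 9.19, a log2 ratio of -0.22, and *H2bc1* exceeded background only with isotype control Ab (7.88), so that its log2 ratio of -0.47 by measured signal is bounded at -0.32. The starts of *H2ac1* and *H2bc1* lie 281 bases apart on opposite strands of chromosome 13, which also holds the cluster named above. The median over the 6 variant genes was -0.16, and -0.14 with detection required in both arrays. With the testis genes counted as core genes, the variant median was -0.14 and the core median -0.12. Over genes with a probe set of their own, the medians of linker (-0.10), core (-0.09) and variant genes (-0.16) differed by at most 0.07. With shared probe sets added, the core median was -0.31. The range by measured signal, genes below background in 1 array included, was -0.77 to 0.92 in linker, -0.67 to 0.25 in core and -0.47 to -0.08 in variant genes.

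The 9 members that did not exceed background in either array were *H1f3*, *H1f6*, *H1f8*, *H2ac4*, *H2ac8*, *H2bc4*, *H2bc22*, *H3c7* and *H3c15*. Their signals ran from 4.92 to 7.37 with isotype control Ab and from 4.96 to 7.26 with ND αCD4. These are signals of each gene's own probe set. The 6 core genes among them are also named in shared probe sets of H2A, H2B and H3, with signals from 12.42 to 13.85 over both arrays. Whether these 6 genes are expressed was therefore not resolved. *H2ac4* (6.20 and 4.96) and *H3c7* (6.12 and 6.83) differed by over 1.5-fold at this level, in opposite directions, and were not counted. *H2ac8* starts 180 bases from *H2bc8* on the opposite strand, and of their own probe sets only that of *H2bc8* exceeded background.

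Genes that control histone supply were followed through 4 lists. Of 10 detected genes of histone gene transcription, 2 were at least 1.5-fold lower by measured signal, against 1.01% of all detected genes. None of the 10 was higher, and their median was -0.13. *E2f1*, an S phase transcription factor, had signals of 9.39 with isotype control Ab and 8.40 with ND αCD4, a 1.99-fold lower level, and the cyclin E gene *Ccne2* was at least 1.17-fold lower, since it exceeded background only in the isotype control array. *Myc* and *Ccne1* had log2 ratios of -0.31 and -0.27, while *Npat*, the coactivator at the histone clusters, had -0.03 (10.31 and 10.28). Of 22 detected genes of histone mRNA 3′ end processing and decay, none reached 1.5-fold and the median was -0.07. The lowest was *Slbp*, whose product binds the histone stem-loop, with signals of 10.32 and 9.85 and a log2 ratio of -0.47, followed by *Snrpb* and *Ncbp1* at -0.23 and *Cpsf2* at -0.15.

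A list of 18 detected genes covered the handling of new histones at replication, not all of them chaperones. Of these, 3 were at least 1.5-fold lower, against 1.01% of all detected genes. None of the 18 was higher, and their median was -0.24. *Mcm2*, a helicase subunit that also carries H3 and H4, had signals of 11.40 and 10.59, a 1.75-fold lower level. *Chaf1b*, a subunit of the CAF-1 chaperone, was 1.61-fold lower (10.21 and 9.52), *Hat1*, which acetylates new H4, was 1.55-fold lower (10.98 and 10.35), and *Mms22l* had a log2 ratio of -0.54. Of 19 detected genes of variant histone deposition and exchange, none reached 1.5-fold and the median was -0.02. The helicase genes *Ruvbl1* and *Ruvbl2* had log2 ratios of -0.53 and -0.39, *Anp32e*, a chaperone that removes H2A.Z, of -0.31, and *Dek*, a chaperone of H3.3, of -0.17.

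The most similar lists, those of DNA replication and mitosis, had lower medians than the histone genes with a probe set of their own. The gap was smaller for some shared histone probe sets, with medians of -0.50 for H3 and -0.40 for H2B. Those of H4 and H2A were -0.19 and -0.18, and the core median with shared probe sets added was -0.31. Of 45 detected genes of replication licensing and forks, 20 were at least 1.5-fold lower by measured signal and none was higher. Their median was -0.56, and all 45 were below 0, against 52.7% of all detected genes. *Mcm2* is also in that list. *Dtl* was 3.30-fold, *Pole* 2.28-fold and *Uhrf1* 2.12-fold lower, while *Orc1* exceeded background only in the isotype control array and was at least 1.42-fold lower. Of 36 detected mitosis genes, 20 were at least 1.5-fold lower by measured signal and none was higher, with a median of -0.66. *Top2a* was 2.77-fold in the brighter of its 2 probe sets (their mean did not exceed background), *Mki67* 2.42-fold and *Cdk1* 2.37-fold lower by signal, and *Bub1* at least 1.64-fold. By share, 4 of 28 detected histone genes (14.3%) were lower, against 1.01% of all detected genes. The share was 44.4% of the replication genes and 55.6% of the mitosis genes by measured signal. Some of these passed the filter only through the isotype control array. With signals floored at background, 19 replication, 18 mitosis and 4 histone genes were lower, and with detection required in both arrays 19, 15 and 4. The latter filter also removes genes from each list, leaving 25 histone genes, so its counts are not out of the same totals. With it, the medians were -0.53, -0.66 and -0.12. No test of these differences was possible with 1 array per condition.

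**Figure D4:**
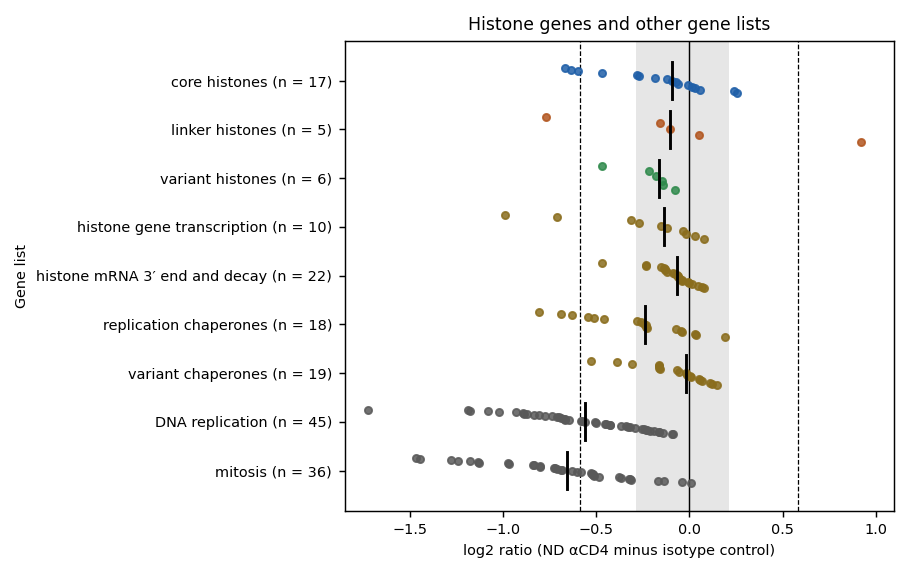
Log2 ratio (ND αCD4 minus isotype control, horizontal axis) of each detected gene of the histone classes and of 6 other lists (vertical axis), 1 point per gene, with list medians as black bars, dashed lines at 1.5-fold and the 5th to 95th percentile of all detected genes shaded. The medians are -0.09 for core histones, -0.56 for DNA replication and -0.66 for mitosis, and *H1f2* is the point furthest to the right. Shared histone probe sets are not drawn, and with them the core median was -0.31.

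Markers of the sorted cells and of other cell types are given beside these results. The 9 measured T cell genes were all detected, with log2 ratios from -0.10 to 0.09 and *Cd4* at 13.38 and 13.48. The CD8 gene *Cd8a* (9.67 and 10.39) was 1.65-fold higher after ND αCD4 and *Cd8b1* (11.38 and 11.83) had a log2 ratio of 0.45, short of 1.5-fold, their summed linear signal being 3478 with isotype control Ab and 4984 with ND αCD4, and their part in the histone results was not tested. Of 8 measured B cell genes, 6 were detected, with a median of 0.12 and summed linear signals of 2717 and 2963. The killer cell gene *Klrd1* was above background in the ND αCD4 array alone and was at least 1.46-fold higher, while the other 2 detected of 6 natural killer genes, *Eomes* (11.72 and 11.41) and *Tyrobp* (8.28 and 8.24), had log2 ratios of -0.31 and -0.04. The summed linear signal of that list was 4052 with isotype control Ab and 3605 with ND αCD4, and *Eomes* made up most of it. Detected were also 3 of 6 measured macrophage, 2 of 6 dendritic cell, 4 of 6 neutrophil and 2 of 2 erythroid genes, none of them past 1.5-fold. Of 8 germ cell genes, 3 were detected (*Prm1*, *Prm2* and *Tnp2*, with log2 ratios from -0.04 to 0.12), while *Ddx4*, *Dazl*, *Sycp1*, *Sycp3* and *Tnp1* did not exceed background.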

How the data were processed

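PLN CD3+CD4+ T cells were measured on 1 array per condition. The authors deposited log2 signals for each probe set, made with Affymetrix Expression Console per the submitters' notes, while how the signals were corrected, normalized and summarized is not stated in the sources read. The paper names a later array version than the one to which the identifiers belong. The log2 scale was inferred from the range (2.52 to 14.7) and the medians (8.15 in both arrays). Of 35557 probe sets, 21789 had 1 symbol, 1621 several and 12147 none, and 21698 were found in RefSeq GRCm38.p6 by gene identifier with 0 changes of symbol. The probe set with the highest mean stood for a gene (999 genes had several). Background came from 1205 receptor probe sets, and where 1 array lay below it, the fold is a bound against that array's background. Neither condition has replicates, so nothing was tested, and precision is limited by the number of arrays. Named by rule were histone genes past 1.5-fold or nearest to it, the 6 largest and 3 smallest log2 ratios in size per class, all detected linker and variant genes, undetected members, and up to 4 genes of each other list with the largest log2 ratio in size. The remaining histone genes, *Npat* and the markers were named after their values were seen. Members and lists were chosen with earlier results of these data known. Tools were Python 3.11.15 with numpy 2.4.6, pandas 2.3.3, matplotlib 3.10.9 and statsmodels 0.14.6, and calculations were checked on simulated data. Alternatives were centring, quantile and lowess scaling, flooring at background, other filters, size rules, probe set choices and classes, and a linear reading of the values, which was not applicable.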

Additional observations from a re-analysis of the deposited data

How the results depend on the processing

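No paired analysis was possible because each condition has 1 array. Shifts of medians and genes were read against 0.0931, an SD between paired probe sets within 536 genes that leaves out differences between mice. Under the 3 other scalings no class median moved beyond it, and the count of lower core genes was 2 in place of 3 with quantile and lowess scaling, as *H2ac15* fell short of the rule. At a 2-fold rule, 0 histone genes were lower and 0 higher, in the linker class (0 and 0), the core class (0 lower) and in all. The largest differences among detected histone genes were 1.90-fold higher (*H1f2*) and 1.71-fold lower (*H1f5*). At a looser rule (a log2 ratio of 0.32 in size), 1 variant gene was lower (*H2bc1*) in place of 0. With no detection filter, 2 histone genes were higher in place of 1, 1 of them a core gene (*H3c7*) in place of 0, 4 core genes were lower in place of 3 (*H2ac4* added), and the linker median was 0.011 in place of -0.10, as 3 undetected linker genes enter. Adding shared probe sets moved the core median to -0.31, or to -0.28 with each distinct pair of values counted once, an alternative chosen after seeing the data. With a floor at background, or with detection required in both arrays, 1 gene of histone transcription was lower in place of 2, since *Ccne2* loses its place. The other 2 alternatives chosen after seeing the data, without the pseudogene and with a mean level of at least 9, moved none of 12 values each.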
